A study of Rattus norvegicus with 22 samples.

Results

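The enzymes of proline breakdown and synthesis were followed in the liver of 22 male Sprague–Dawley rats, on Agilent two-colour rat arrays with 1 array for each rat. The 6 genes are Prodh, Prodh2, Aldh4a1, Aldh18a1, Pycr1 and Oat. They were found by gene name among the 30367 non-control probes of the array, which carry 26276 gene names, and 9 probes report them. The set was put together with earlier results of these data known, and Prodh in it was chosen by its lower log2 ratio after 14 months. Differences of the 6 genes between 3 and 14 months are therefore given as a description with no test, while differences between the diets were tested.

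The rats were 8 weeks old when feeding started. Rats of CD 3 (5 rats) and CD 14 (6 rats) received a control diet for 3 and 14 months. Rats of BD 3 (5 rats) and BD 14 (6 rats) received the BASE-diet over the same periods, in which salmon fat (6%) replaced lard and linden extract (8%), pumpkin puree (8%) and a pair of probiotic strains (1%) were added. The diet is thus a mixture, and no group received 1 of its components alone. On every array the rat liver RNA carried Cy5 and the same reference RNA, from healthy rats aged 10 weeks outside the experiment, carried Cy3, as the labels give it. The methods name the dyes differently, and no array had its dyes swapped. A value below is the log2 ratio of rat to reference, so that 1 unit is a 2-fold difference. Since probes differ in brightness, signal levels of different probes were compared only to choose the main probe of a gene.

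Proline is degraded in mitochondria. Proline dehydrogenase, encoded by Prodh, oxidizes it to pyrroline-5-carboxylate and passes the electrons to the respiratory chain, and Aldh4a1 encodes the dehydrogenase that turns pyrroline-5-carboxylate into glutamate. Prodh2 encodes the related enzyme that starts the breakdown of hydroxyproline, an amino acid released from collagen, and its product is also handled by the Aldh4a1 enzyme. In the other direction, Aldh18a1 encodes the synthase that makes pyrroline-5-carboxylate from glutamate, Pycr1 encodes a reductase that makes proline from it, and Oat encodes ornithine aminotransferase, which links the same intermediate to ornithine and the urea cycle. In liver, breakdown of proline feeds glutamate and glucose production.

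The probe sequences are shown for the pair of genes whose probes gave different answers, Prodh and Aldh4a1. Positions are those of the rat build rn4 as annotated for the array, and the strand was read from the order of the coordinates, which placed both genes on the + strand. Each gene has 1 probe called the 3′-end probe here and 1 lying upstream of it on the strand, 8126 bases apart for Prodh and 5613 bases apart for Aldh4a1. Both 3′-end probes hold the letters AATAAA, the hexamer of the polyadenylation signal, shown in capitals, and only 30 bases around it are printed. No annotation of that build was used here, so the names give the order of the probes, and exon, intron or UTR is not given. Of all 30367 probes, 8.39% hold these letters on the printed strand and 2.86% hold their reverse complement TTTATT.
Prodh 3′-end probe A_64_P038926 at chr11:84922170-84922229, bases 22 to 51 of the probe: gcctgtttagtcAATAAAtcatcttgtagt
Prodh upstream probe A_44_P139291 at chr11:84913567-84914043: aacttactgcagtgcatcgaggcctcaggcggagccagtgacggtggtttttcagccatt
Aldh4a1 3′-end probe A_64_P031640 at chr5:158453764-158453823, bases 31 to 60 of the probe: gagtaaagtttaAATAAAtgagctcttaaa
Aldh4a1 upstream probe A_64_P164296 at chr5:158448091-158448150: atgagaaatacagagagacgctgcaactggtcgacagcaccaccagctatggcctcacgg

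The upstream Prodh probe is 60 bases long and spans 477 bases of the genome, so its sequence is not contiguous there, while both Aldh4a1 probes and the 3′-end Prodh probe span 60 bases. None of the 3 reading frames of the 3′-end Aldh4a1 probe is free of stop codons, 1 frame of the 3′-end Prodh probe is free of them, and 2 of 3 frames are open in each upstream probe. The remaining genes have the probes A_42_P558144 for Prodh2 (chr1:85557265-85559315), A_43_P12236 for Oat (chr1:192026857-192026916), A_64_P046369 for Pycr1 (chr10:110032045-110032104), and for Aldh18a1 both A_64_P154104 (chr1:245686884-245686943) and, 533 bases downstream, A_44_P532038 (chr1:245686291-245686350).

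Tests were run on 19434 probes. For each of these, a share of 0.5 or more of the spots was well above background in Cy5 on all arrays of 1 or more groups. Of the 9 probes of the set 7 passed, and they report 5 of the 6 genes. Pycr1 did not pass. Its probe was well above background in Cy5 on 9 of 22 arrays, in 2 of 5 CD 3, 2 of 5 BD 3, 3 of 6 CD 14 and 2 of 6 BD 14 rats, and in the reference on 1 of 22 arrays, so no difference is given for it. The downstream Aldh18a1 probe, above background on 14 of 22 arrays, did not pass either. Where a gene has several probes, the brightest in Cy5 is its main probe, which for Prodh and Aldh4a1 is the 3′-end probe.

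Arrays differed in signal, and 52.4% to 93.6% of their spots were well above background in Cy5, with the lowest share in CD 3 rat 4. The median residual SD of a probe was 0.53 on the log2 scale. All 6 hepatocyte markers, among them albumin and apolipoprotein A1, were well above background on all 22 arrays. The arrays lay on 5 slides that the groups shared unevenly. Slide A held BD 3 rats 3, 4 and 5 and CD 14 rats 1, 2 and 3, slide B held CD 3 rat 1 and BD 3 rats 1 and 2, slide C held all BD 14 rats and CD 14 rats 4 and 5, slide D held CD 3 rats 2, 3 and 4, and slide E held CD 3 rat 5 and CD 14 rat 6. No slide held BD 3 together with BD 14.

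Prodh, the first step of proline breakdown, was lower at 14 months on both diets at its 3′-end probe, which is the contrast that chose it. At its 3′-end probe the log2 ratios of the CD 3 rats 1 to 5 were 0.31, 0.44, 1.28, 1.55 and 0.96, a mean of 0.91 ± 0.53 (SD, n = 5). The BD 3 rats 1 to 5 had 0.15, 1.73, 0.31, 0.89 and 0.29, with a mean of 0.67 ± 0.65 (SD, n = 5). All 10 rats of the 3-month groups were thus above the reference.

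After 14 months the CD 14 rats ran from -1.01 through a median of -0.24 to 0.87, with a mean of -0.16 ± 0.77 (SD, n = 6). The BD 14 rats ran from -1.08 through -0.42 to 0.03, with a mean of -0.47 ± 0.42 (SD, n = 6). The difference between 14 and 3 months was -1.07 (SE 0.35) on the control diet and -1.14 (SE 0.35) on the BASE-diet, which is 2.09-fold and 2.21-fold lower. On the BASE-diet the groups did not overlap, since the highest BD 14 rat had 0.03 and the lowest BD 3 rat 0.15. On the control diet they did overlap, because CD 14 rats 3 and 6 had 0.59 and 0.87. Groups that do not overlap, with the older rats lower, were found at 1.08% of all tested probes on the BASE-diet and at 0.232% on the control diet. This contrast chose the gene, so nothing is read from these shares.

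**Figure D1:**
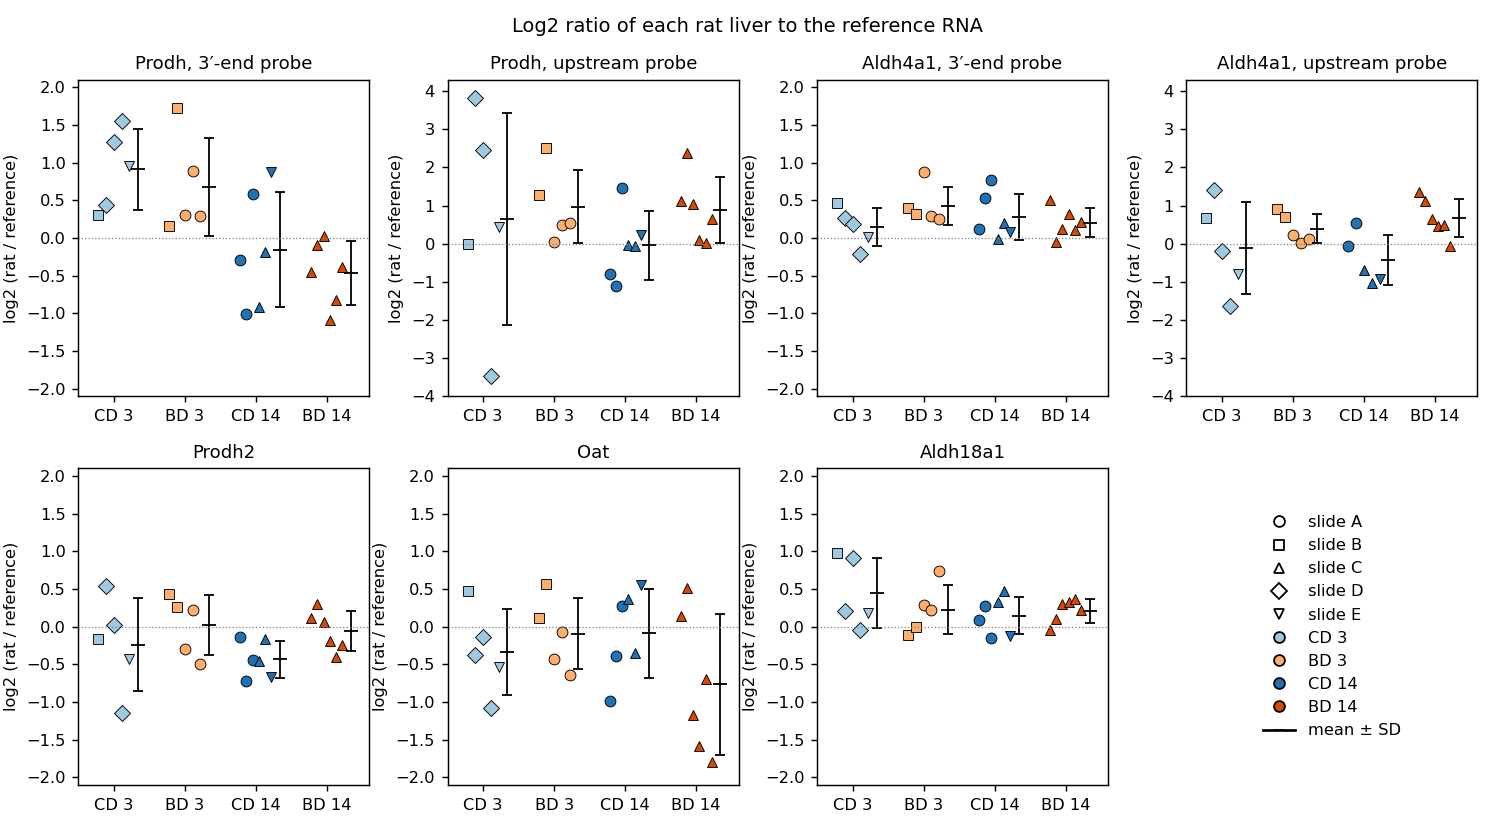
Log2 ratio of rat to reference RNA (y axis) of each rat in CD 3, BD 3, CD 14 and BD 14 (x axis) for the 7 tested probes, with symbols for the slide and a bar for the group mean ± SD. The upstream probes have a wider y axis than the others. At the 3′-end Prodh probe all 3-month rats lie above 0 and 5 of 6 BD 14 rats below 0, and the upstream Prodh probe in CD 3 spreads from -3.46 to 3.83.

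At 14 months the mean was lower in the rat channel and higher in the reference channel. The log2 Cy5 signal of the rats at the 3′-end Prodh probe averaged 12.90 ± 0.78 for CD 3 and 12.51 ± 0.61 for BD 3 (SD, n = 5 each), against 12.04 ± 0.48 for CD 14 and 11.99 ± 0.32 for BD 14 (SD, n = 6 each). The log2 Cy3 signal of the reference RNA averaged 11.99 ± 0.56 and 11.83 ± 0.68 on the 3-month arrays (SD, n = 5 each), and 12.20 ± 0.69 and 12.46 ± 0.38 on the 14-month arrays (SD, n = 6 each), with the control diet given first. These signals were not scaled between arrays. With the Cy5 channel alone and quantile normalization, the difference was -0.97 (SE 0.27) on the control diet and -0.58 (SE 0.27) on the BASE-diet.

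The value depended on whether the slide was in the fit. With the slide as a block the Prodh difference was -0.10 (SE 0.56) on the control diet and -0.66 (SE 0.61) on the BASE-diet. Slide E alone holds both ages of the control diet, and there CD 3 rat 5 had 0.96 and CD 14 rat 6 had 0.87. On slide A, which holds different diets at the 2 ages, the mean of 3 BD 3 rats was 0.50 and that of 3 CD 14 rats was -0.24. No slide holds both ages of the BASE-diet, so its block value comes only through slides shared with the control diet, and within the BASE-diet time and slide cannot be told apart.

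The upstream Prodh probe was far more variable than the 3′-end probe, with a pooled SD within groups of 1.53 against 0.61. The CD 3 rats 1 to 5 had -0.01, 3.83, 2.45, -3.46 and 0.43 there, and the BD 3 rats had 1.27, 2.50, 0.05, 0.50 and 0.55. In CD 14 the values ran from -1.10 through -0.04 to 1.47 and in BD 14 from 0.01 through 0.84 to 2.38. The extremes are poorly measured. On CD 3 rats 2 and 3 and BD 14 rat 2, with 3.83, 2.45 and 2.38, the reference channel of this probe was not well above background, and on CD 3 rat 4, with -3.46, the rat channel was not. The difference with time was -0.69 (SE 0.86) on the control diet and -0.09 (SE 0.86) on the BASE-diet. Without CD 3 rat 4, the array of lowest signal, the control-diet difference was -1.72 (SE 0.67), a value that rests on CD 3 rats 2 and 3. It was 0.55 (SE 0.48) in the Cy5 channel alone and 0.56 (SE 1.56) with the slide as a block, so that its sign was not stable. The BASE-diet difference was -1.06 (SE 0.48) in the Cy5 channel alone, 0.16 (SE 1.69) with the slide as a block and 0.29 without BD 3 rat 2. Between the diets the upstream probe differed by 0.33 (SE 0.90, adjusted p = 0.966 by limma) at 3 months, by -0.70 without CD 3 rat 4, and by 1.86 (SE 0.50, adjusted p = 0.0618 by limma) in the Cy5 channel alone. At 14 months it differed by 0.92 (SE 0.82, adjusted p = 0.952 by limma), and by 0.26 in the Cy5 channel alone.

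Between the diets Prodh gave no call. At 3 months the 3′-end probe was -0.23 (SE 0.37, 95% interval -1.0 to 0.53) in BD 3 minus CD 3, with an adjusted p of 0.936 by limma. It was -0.0734 without CD 3 rat 4, -0.50 without BD 3 rat 2 and 0.64 with the slide as a block, so its sign was not stable. After 14 months BD 14 minus CD 14 was -0.31 (SE 0.34, 95% interval -1.02 to 0.39), with an adjusted p of 0.952 by limma. It was -0.48 without CD 14 rat 2, -0.11 without CD 14 rat 6 and 0.10 in the Cy5 channel alone. On slide C, where both diets are present at 14 months, the 6 BD 14 rats had a mean of -0.47 and the 2 CD 14 rats -0.55. The diet difference at 14 months differed from that at 3 months by -0.08 (SE 0.50), with an adjusted p of 0.999 by limma.

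Across the set, 0 of 5 main probes were called between BD 3 and CD 3, between BD 14 and CD 14, or in the interaction of diet and time, by limma at an adjusted p under 0.05. Over all 19434 tested probes the share called was 0.0% in each of these comparisons. At an unadjusted p under 0.05 the count was again 0 of 5 main probes in each, against 7.11%, 4.6% and 4.8% of all tested probes. Tukey's HSD, which the methods name, called 0 of 5 in both diet comparisons. Among all 19434 tested probes it called 0 at 3 months and 1 at 14 months, so 0 of 5 says little about these genes. With a test of that name the paper lists more genes between the diets at both times. The cause of this difference was not tested. Diet groups that do not overlap were found at 0 of 5 main probes at either time, against 0.756% of all tested probes at 3 months and 0.767% at 14 months.

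Aldh4a1, the next step of breakdown, varied little at its 3′-end probe, with an SD of 0.26 over the 22 rats and log2 ratios between -0.21 and 0.87. The CD 3 rats 1 to 5 had 0.47, 0.27, 0.19, -0.21 and 0.01, and the BD 3 rats 0.40, 0.32, 0.87, 0.29 and 0.25. CD 14 ran from -0.02 through 0.16 to 0.77 and BD 14 from -0.05 through 0.17 to 0.51, so all 4 groups overlapped. The diet difference was 0.28 (SE 0.19, adjusted p = 0.819 by limma) at 3 months and -0.08 (SE 0.17, adjusted p = 0.969 by limma) at 14 months. The difference with time was 0.14 (SE 0.18) on the control diet and -0.22 (SE 0.18) on the BASE-diet. The control-diet value was 0.0388 without CD 14 rat 3 and 0.22 without CD 3 rat 1, and the BASE-diet value was -0.11 without BD 3 rat 3. The Prodh and Aldh4a1 main probes, which report consecutive steps, had a Pearson r of -0.12 over the 22 arrays, as a description.

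The upstream Aldh4a1 probe gave another picture at 14 months. In CD 14 it ran from -1.02 through a median of -0.68 to 0.54 (mean -0.43 ± 0.66, SD, n = 5, since CD 14 rat 1 had a non-uniform spot). In BD 14 it ran from -0.06 through 0.57 to 1.35 (mean 0.67 ± 0.51, SD, n = 6), and the groups overlapped. The difference was 1.1 (SE 0.42, 95% interval 0.21 to 1.98), with an unadjusted p of 0.0175 and an adjusted p of 0.952 by limma. The adjusted p ranged from 0.296 to 1.0 over the alternatives, and 3.79% of all tested probes were higher in BD 14 at an unadjusted p under 0.05. Within slide C the difference was 1.52, with 6 BD 14 and 2 CD 14 rats, and in the Cy5 channel alone it was 0.54 (SE 0.45, adjusted p = 0.799 by limma). At 3 months the upstream probe differed by 0.51 (SE 0.44, adjusted p = 0.87 by limma). That value was 0.13 without CD 3 rat 4, 0.89 without CD 3 rat 2, -0.0073 with the slide as a block and 1.46 (SE 0.47, adjusted p = 0.112 by limma) in the Cy5 channel alone, so neither its size nor its sign was stable.

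For both genes the gap between the upstream and the 3′-end probe varied strongly from array to array. The Prodh gap, the log2 ratio upstream minus that at the 3′ end, ran from -5.01 in CD 3 rat 4 to 3.38 in CD 3 rat 2, with a median of 0.81 over the 22 arrays. On 4 arrays, CD 3 rats 2, 3 and 4 and BD 14 rat 2, a channel of the upstream Prodh probe was not well above background, and over the other 18 the gap ran from -0.64 to 1.57. On the control diet its mean was -0.26 ± 3.08 at 3 months (SD, n = 5) and 0.11 ± 0.66 at 14 months (SD, n = 6), and on the BASE-diet 0.30 ± 0.65 (SD, n = 5) and 1.35 ± 0.60 (SD, n = 6). The Aldh4a1 gap ran from -1.43 to 1.18 over 21 arrays, with the same lowest array, and had means of -0.26 ± 0.98 and -0.74 ± 0.38 on the control diet (SD, n = 5 each), and of -0.03 ± 0.47 (SD, n = 5) and 0.47 ± 0.51 (SD, n = 6) on the BASE-diet.

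The same gap was computed for 1416 other genes with a pair of tested probes whose starts lie at least 1000 bases apart on one strand. Their median gap was -0.83 in CD 3 rat 4, 0.26 in CD 3 rat 2 and 0.35 in BD 14 rat 2, and its means were -0.14 ± 0.42 (SD, n = 5) and -0.18 ± 0.13 (SD, n = 6) on the control diet and -0.07 ± 0.11 (SD, n = 5) and 0.06 ± 0.18 (SD, n = 6) on the BASE-diet. Over the 22 arrays the Prodh gap went with this median (Pearson r = 0.91, permutation p = 1e-05, the smallest that the permutations can give, adjusted 1.5e-05; Spearman rho = 0.78, permutation p = 6e-05, adjusted 9e-05). Without CD 3 rat 4 and BD 14 rat 2, the 2 arrays farthest from the median, r was 0.77. Over the 18 arrays with both channels of both Prodh probes well above background it was 0.67 (Spearman rho = 0.67), so part of the 0.91 rests on the other 4. It was 0.95 over the 8 arrays of slide C and 0.78 over the 6 arrays of slide A.

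The Aldh4a1 gap followed the other genes in the same way over 21 arrays (Pearson r = 0.88, permutation p = 1e-05, adjusted 1.5e-05; Spearman rho = 0.91, permutation p = 1e-05, adjusted 3e-05). Its r was 0.89 without the same 2 arrays and 0.90 within slide C. The gaps of Prodh and Aldh4a1 went together too (Pearson r = 0.76, permutation p = 2e-05, adjusted 2e-05; Spearman rho = 0.72, permutation p = 0.00043, adjusted 0.00043), with r = 0.73 without CD 3 rats 4 and 2 and r = 0.85 within slide C, and with r = 0.67 over the 17 arrays with both values and both Prodh channels well above background. These were 3 relations, all two-sided and adjusted together, and the other slides hold too few arrays with both values for an r. The gap of either gene thus went with the gap of many genes on the same array. Whether the upstream or the 3′-end probes shifted, and the part of this in the diet and time differences, was not tested.

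**Figure D2:**
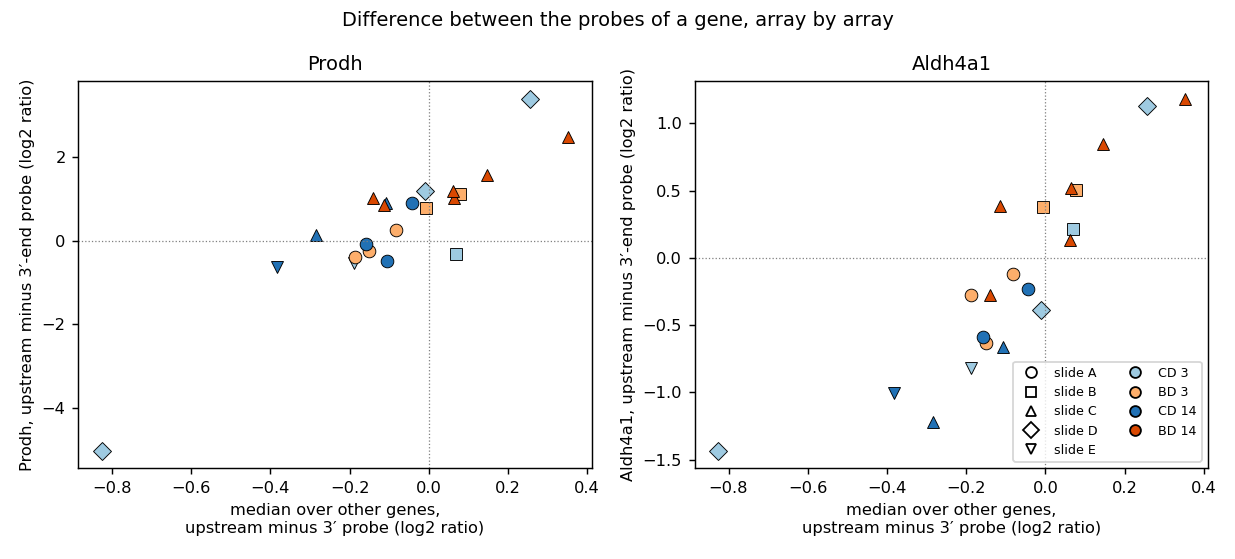
Gap between the upstream and the 3′-end probe of Prodh (left) and Aldh4a1 (right), in log2 ratio on the y axis, against the median gap of 1416 other genes on the same array (x axis), with 1 point for each array, colours for the groups and symbols for the slides. Points rise together in both panels (r = 0.91 and r = 0.88), CD 3 rat 4 lies lowest at -5.01 and -1.43, and BD 14 arrays lie towards the upper right. In the left panel r is 0.67 over the 18 arrays on which both Prodh probes were well above background in both channels.

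Prodh2, which acts on hydroxyproline, overlapped between all groups compared. The CD 3 rats 1 to 5 had -0.17, 0.54, 0.02, -1.15 and -0.43, and the BD 3 rats 0.43, 0.26, -0.29, 0.22 and -0.49. CD 14 ran from -0.73 through -0.45 to -0.14 and BD 14 from -0.41 through -0.07 to 0.30. The diet difference had the same sign at both times, 0.26 (SE 0.26, 95% interval -0.27 to 0.79, adjusted p = 0.887 by limma) at 3 months and 0.37 (SE 0.23, 95% interval -0.11 to 0.86, adjusted p = 0.952 by limma) at 14 months. The value at 3 months was 0.0365 without CD 3 rat 4 and 0.46 without CD 3 rat 2. In the Cy5 channel alone with quantile normalization the value at 14 months was -0.17, so its sign was not stable. That setting changes both the channel and the normalization, and their parts were not tested. With time the gene differed by -0.19 (SE 0.24) on the control diet and by -0.09 (SE 0.24) on the BASE-diet.

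Oat, the link to ornithine, had its lowest values and its widest spread in BD 14. The CD 3 rats 1 to 5 had 0.48, -0.38, -0.14, -1.08 and -0.54, and the BD 3 rats 0.11, 0.56, -0.42, -0.06 and -0.65. CD 14 ran from -0.99 through -0.04 to 0.55, and BD 14 from -1.80 through -0.93 to 0.52. BD 14 rats 3, 4 and 6 lay below every other rat of the series, while BD 14 rats 1 and 2 lay above 0. The difference BD 14 minus CD 14 was -0.67 (SE 0.37, 95% interval -1.45 to 0.10), with an unadjusted p of 0.0854 and an adjusted p of 0.952 by limma. It was -0.77 within slide C and kept its sign under every alternative, between -0.93 and -0.45, with adjusted p-values from 0.606 to 1.0. At 3 months the diet difference was 0.24 (SE 0.41, adjusted p = 0.941 by limma), with 0.0546 without CD 3 rat 4 and 0.44 without CD 3 rat 1, and the interaction was -0.92 (SE 0.55, adjusted p = 0.999 by limma). With time Oat differed by 0.24 (SE 0.39) on the control diet and by -0.67 (SE 0.39) on the BASE-diet. The first of these was 0.0562 without CD 3 rat 4 and 0.45 without CD 3 rat 1.

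Aldh18a1 is the entry of glutamate into proline synthesis. Its main probe ran from -0.15 through 0.18 to 0.47 in CD 14 and from -0.04 through 0.26 to 0.36 in BD 14. The reference channel of this probe was dim there, since it was not well above background on CD 14 rat 4 and BD 14 rat 3 and was well above it at only a share of 0.5 of its spots on CD 14 rat 5 and BD 14 rats 5 and 6. The same share held in the reference on CD 3 rat 3 and in the rat channel on CD 3 rat 4. The CD 3 rats 1 to 5 had 0.98, 0.21, 0.91, -0.05 and 0.18, and the BD 3 rats -0.11, -0.01, 0.29, 0.22 and 0.73. The diet difference was -0.22 (SE 0.21, 95% interval -0.66 to 0.22, adjusted p = 0.889 by limma) at 3 months and 0.06 (SE 0.19, 95% interval -0.34 to 0.47, adjusted p = 0.981 by limma) at 14 months. The former was -0.34 without BD 3 rat 5 and -0.0842 without CD 3 rat 1, and the latter 0.0055 without CD 14 rat 3 and 0.13 without CD 14 rat 5. With time it differed by -0.30 (SE 0.20) on the control diet and -0.01 (SE 0.20) on the BASE-diet, and when the slide was a block these became -0.82 (SE 0.32) and -0.36 (SE 0.34). Without CD 3 rat 1 the control-diet value was -0.16. Of the enzymes that act only in synthesis, Aldh18a1 is the one measured here, since Pycr1 was near background.

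**Figure D3:**
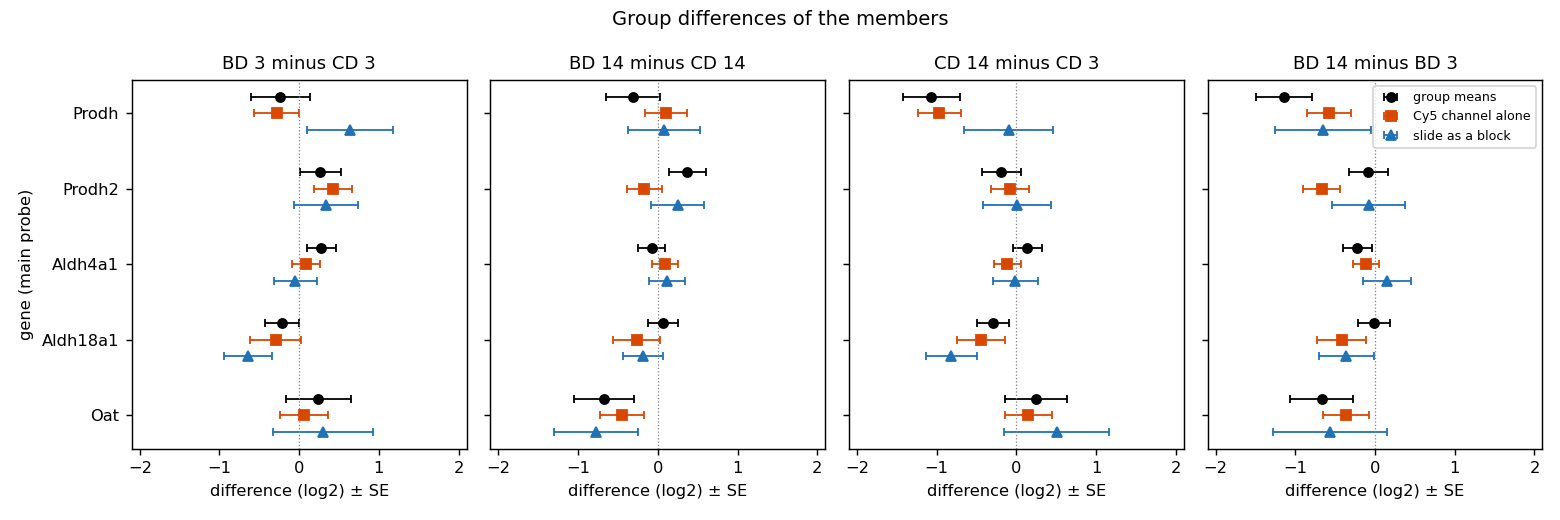
Differences of the 5 main probes in the 4 comparisons (x axis, log2, bars ± SE) from the fit of the group means, from the Cy5 channel alone and with the slide as a block. Prodh lies near -1 in both comparisons of time in the fit of group means, and at -0.10 with the slide as a block on the control diet.

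Of 54 related genes on the array, in 6 lists, 47 were tested. By limma 0 of 47 were called at an adjusted p under 0.05 in either diet comparison or either comparison of time. Their counts at an unadjusted p under 0.05 were 2 at 3 months and 2 at 14 months between the diets, and 3 on the control diet and 5 on the BASE-diet with time. The shares of all tested probes at that level were 7.11% and 4.6% between the diets, and 10.1% and 7.44% with time. The median diet difference of the 47 was 0.13 at 3 months and 0.09 at 14 months, beside 0.03 and 0.05 over all tested probes.

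Nearest to the set are 13 tested genes of glutamate and ornithine, among them the arginases, the glutaminases, glutamate dehydrogenase and ornithine transcarbamylase. Between the diets 0 of 13 had an unadjusted p under 0.05 at either time, with medians of 0.37 and 0.23. The 6 tested hydroxyproline genes, which include the prolyl hydroxylases of collagen, also held 0 of 6, with medians of 0.16 and 0.19. Of 10 tested peptidases and transporters of proline, Xpnpep3, an aminopeptidase that cuts before proline, was lower in BD 3 at an unadjusted p of 0.0272 (difference -0.80, SE 0.34, adjusted p = 0.631 by limma), and the median of the list was 0.11 at 3 months and 0.12 at 14 months.

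Liver divides amino acid work between the portal and the central side of the lobule, and a list was kept for each. Among 7 tested periportal genes Sds, the serine dehydratase that makes pyruvate from serine, averaged -2.19 ± 1.42 for CD 3 and 0.56 ± 2.52 for BD 3 (SD, n = 5 each), with a difference of 2.75 (SE 1.14) and an adjusted p of 0.625 by limma. The list's median diet difference was 0.66 at 3 months and 0.03 at 14 months. Among 7 tested perivenous genes, Slc1a2, a glutamate transporter, and Cyp1a2, a cytochrome P450, had the smallest unadjusted p at 14 months. Slc1a2 averaged -0.27 ± 0.50 for CD 14 and -1.25 ± 0.56 for BD 14 (SD, n = 6 each), with a difference of -0.98 (SE 0.29) and an adjusted p of 0.767 by limma. For Cyp1a2 the difference was -1.0 (SE 0.34, adjusted p = 0.931 by limma). The median of the perivenous list was 0.10 at 3 months and -0.14 at 14 months.

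With time the list medians on the control diet and the BASE-diet were 0.13 and 0.02 for glutamate and ornithine genes, 0.01 and 0.20 for hydroxyproline genes, 0.13 and 0.01 for peptidases and transporters, -0.12 and -0.43 for periportal genes, and -0.10 and -0.56 for perivenous genes. Over all tested probes the medians were 0.03 and 0.07. In BD 14 minus BD 3 the difference was negative at 7 of 7 tested perivenous genes and at 6 of 7 periportal genes. By limma 2 of 7 in each list had an unadjusted p under 0.05, beside 7.44% of all tested probes. The share of all tested probes with a negative difference is not given here, and BD 3 and BD 14 share no slide, so nothing is read from these counts. Groups did not overlap at 1 of the 47 related genes on the BASE-diet, Cyp2f4, a periportal cytochrome P450 with 0.11 to 0.53 in BD 3 and -1.12 to 0.01 in BD 14, beside 2.26% of all tested probes. On the control diet they did not overlap at 0 of 47, beside 0.515% of all tested probes.

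Markers of liver cell types were read in the same comparisons of time, and limma called 0 of them in every list. In bulk tissue fewer cells of a type and less RNA per cell cannot be told apart. The 4 Kupffer cell and macrophage markers were higher at 4 of 4 in CD 14 than in CD 3, with a median of 1.17, and their mean ran from -3.26 to -0.80 over the CD 3 arrays and from -1.61 to -0.32 over the CD 14 arrays, with 3 of the 4 well above background on every array. On the BASE-diet the same median was 0.23. At an unadjusted p under 0.05, 3 of these 4 markers were higher in CD 14, as were 1 of 3 endothelial and 1 of 4 tested lymphocyte markers, beside 10.1% of all tested probes in either direction. The 3 endothelial markers had medians of 0.74 and -0.13, the 5 stellate and fibroblast markers 0.15 and 0.08, the 3 tested bile duct markers 0.29 and 0.73, the 4 tested lymphocyte markers 0.26 and 0.17, the 3 red cell markers 0.35 and 0.75, and the 6 hepatocyte markers 0.09 and 0.09. The 1 tested pancreas marker had -0.68 and 0.24. Over all tested probes the medians were 0.03 and 0.07. Only 0 of 4 bile duct, 2 of 6 lymphocyte and 1 of 4 pancreas markers on the array were well above background on every array. The part of these cells in the Prodh difference was not tested.

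The 5 genes whose main probe was most like the 3′-end Prodh probe over the 22 arrays were taken from 16468 genes with a value on every array. They were Cry1, a repressor of the circadian clock (Pearson r = 0.82), Ppif, the mitochondrial cyclophilin (0.82), Nipsnap1, a mitochondrial protein (0.82), Ptpla, a dehydratase of long fatty acids (0.80), and Abcb6, a porphyrin transporter (0.79). The median r over all these genes was -0.04 and the 99th percentile 0.64. With the group means removed, r was 0.71, 0.79, 0.69, 0.67 and 0.69 in that order, and with the slide means removed it was 0.70, 0.67, 0.59, 0.68 and 0.69. All points share 1 reference RNA, and r is given as a description. Among the members themselves the highest r with Prodh was 0.29, for Oat.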

How the data were processed

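Liver RNA of 22 rats was measured on two-colour arrays, 1 array for each rat, and groups were taken from the labels. The authors deposited the Agilent Feature Extraction output, whose processed intensity had the background subtracted and the dyes normalized by Lowess, with log10 values of the ratio of Cy5 to Cy3. The labels give version 10.7.3.1 of that software and the file headers 10.10.1.1, with probes annotated to rn4. They also deposited a table of log2 values of 3017 probes, of which 1 is a member probe, the 3′-end probe of Prodh. It was used as an alternative only, and its centring is not given in the sources used here. Columns of other samples numbered 0.

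Ratios were expressed as log2 without scaling between arrays, after dropping controls and any spot with a non-uniformity flag, and a probe's value is the mean of its spots. The 4 group means were fitted with limma 3.58.1 in R 4.3.3 (eBayes, prior df 3.37), with Benjamini-Hochberg adjustment across 19434 probes. Tables and figures used Python 3.11.15, numpy 2.4.6, pandas 2.3.3, scipy 1.17.1 and matplotlib 3.10.9. The steps were tested on simulated data. Signal over background takes the place of depth, and the number of arrays limits the precision. P-values by limma set a difference against the spread between rats of a group, which in the main fit includes differences between arrays and slides. The permutation p-values of the gaps shuffle all arrays without regard to group or slide.

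The members and the lists (6 of related genes, 8 of cell markers) were chosen with earlier results of these data known. The result of 1 of the lists of related genes is not reported here. Named are all members, the genes of a related list with an adjusted p under 0.05 in a diet comparison or else at most 2 with the smallest unadjusted p under 0.05, at most 2 that do not overlap with time, and the 5 genes most like Prodh. Alternatives were normexp (offset 50) with loess, Cy5 alone with quantile normalization, median-centred arrays, no filter, non-uniform spots kept, slide or rat number as a block, only the groups compared, the methods' ANOVA with Tukey's HSD, the other probe of a gene, the authors' log2 values, and leaving out each array. Chosen after seeing the data were leaving out the 2 arrays of many non-uniform spots, leaving out CD 3 rat 4, slide C alone at 14 months, the gaps between probes, and these gaps over arrays with both Prodh probes well above background.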

Additional observations from a re-analysis of the deposited data

Results flagged for a closer look

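Of 28 combinations of a tested member probe and a group, 1 held a rat far from the others of its group, where chance alone gives about 1 in 20. At the 3′-end probe of Aldh4a1, BD 3 rat 3 had a log2 ratio of 0.87, while the other 4 rats of BD 3 lay between 0.25 and 0.40. Without it the difference BD 3 minus CD 3 was 0.17 in place of 0.28.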

How the results depend on the processing

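No alternative brought a member past the threshold in a diet comparison or in the interaction, so the counts of called members stayed at 0 of 5, also with each array left out (0 to 0). The count of related genes called in the 4 comparisons was 0 and became 1 with the Cy5 channel alone, where Grhpr was lower in BD 14 than in BD 3 (-0.80, adjusted p = 0.0495 by limma), and stayed at 0 to 0 with each array left out. The Prodh difference with time on the control diet went from -1.07 to -0.10 with the slide as a block, and that on the BASE-diet from -1.14 to -0.0943 at the upstream probe. With each array left out they ran from -1.27 to -0.90 and from -1.27 to -0.88. The authors' values gave -1.12 and -1.14. Their columns were matched by name, and by value 0 of 5 CD 3 columns went best with the array of that name, against 17 of 17 in the other groups. The columns named CD 3 rats 1 to 4 went with the arrays of CD 3 rats 2 to 5 (r = 0.93 to 0.96 over 2936 probes). The fifth column went with no array (highest r 0.49) and none went with CD 3 rat 1, so -1.12 covers 4 of the 5 CD 3 arrays and a column of unsettled origin. Where the causes of these shifts lie was not tested.

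Signs turned for 9 of 15 diet and interaction differences under some setting. With the slide as a block they were 0.64 (Prodh, 3 months), -0.0488 (Aldh4a1, 3 months), 0.078 (Prodh, 14 months), 0.11 (Aldh4a1, 14 months), -0.19 (Aldh18a1, 14 months), and in the interaction -0.0866 (Prodh2) and 0.16 (Aldh4a1). Slide C alone gave the same 0.078, 0.11 and -0.19 at 14 months. With the Cy5 channel alone they were 0.10 (Prodh), -0.17 (Prodh2), 0.0888 (Aldh4a1) and -0.27 (Aldh18a1) at 14 months, and 0.39 (Prodh), -0.59 (Prodh2) and 0.0026 (Aldh4a1) in the interaction. The upstream probe gave 0.33 (Prodh, 3 months), 0.92 (Prodh) and 1.1 (Aldh4a1) at 14 months, and 0.60 (Prodh) and 0.59 (Aldh4a1) in the interaction. With the 2 arrays richest in non-uniform spots left out, the Prodh interaction was 0.0447.

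With each array left out, signs turned for Aldh4a1 at 14 months (-0.14 to 0.0193) and in the interaction for Prodh (-0.25 to 0.19) and Prodh2 (-0.0871 to 0.33). Of the differences with time, those of Aldh18a1 (-0.0982 to 0.11, the latter without BD 3 rat 5) and Prodh2 (-0.22 to 0.0146, the latter without BD 3 rat 1) on the BASE-diet and of Prodh2 on the control diet (-0.42 without CD 3 rat 4 to 0.0007 without CD 3 rat 2) turned too. The slide block moved the median of all tested probes by over 0.1, to 0.15 in BD 3 minus CD 3, 0.14 in CD 14 minus CD 3 and -0.11 in the interaction. With the rat number as a replicate block no call changed, and the Prodh differences with time were -1.18 and -1.26. Same-numbered rats of different groups deviated together (r over 0.1) in 6 of 31 pairs, so the numbers do not pair the rats. Tukey's HSD and the fit of only the groups compared give no interaction.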
